A study of Bos taurus with 20 samples.

Results

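Cumulus cells (CC) taken after 4 h of in vitro maturation (IVM) were compared with CC taken at the start, and the comparison covered 14762 of the 22550 genes or transcripts on the array. These 14762 genes are called expressed, because in CC or in CC after IVM at least 3 of the 4 arrays flagged 1 or more of their probes as well above background. The rule used detection on each array and no difference between the groups.

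CC are the layers of somatic cells that surround the oocyte inside the follicle, the fluid-filled unit of the ovary. When the ovulatory hormone signal or a maturation culture releases the oocyte from arrest, EGF-like growth factors act on CC, which then build a hyaluronan-rich matrix and loosen. This change is known as cumulus expansion, and its early gene response is known to include HAS2, the enzyme that makes hyaluronan.

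The series held 20 one-color arrays of bovine cells from follicles of 3 to 6 mm, collected from ovaries after slaughter. The labels named 5 groups of 4 arrays, which were theca cells (TH), granulosa cells (GC), CC, oocytes and CC after IVM. CC in both groups were freed from cumulus-oocyte complexes and their RNA was extracted in the same way, but the matured complexes had first spent 4 h in IVM. Strain, animal age and the number of animals or complexes behind each array, and the medium of this IVM, were not given in the sources used here. P-values therefore measure only the spread between these 4 arrays of each group, which may be technical.

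The 8 arrays were not equally bright or equally tight. The 75th percentile of the processed signal lay between 536 and 657 on the CC arrays and between 284 and 396 on the arrays after IVM, and the share of probes well above background was 58.9 to 62.8% and 54.2 to 58.3%. All 4 arrays after IVM shared slide 3, whereas CC replicates 1 and 2 were on slide 1 and CC replicates 3 and 4 on slide 2, so slide 3 and IVM cannot be told apart. Between the other 2 slides, limma called 0 genes when the 16 arrays not subjected to IVM were fitted by cell type, although 1632 genes (7.24%) had an unadjusted p under 0.05. The median standard deviation (SD) of a gene expressed in both groups was 0.20 in CC and 0.43 after IVM on the log2 scale, and array correlations were 0.985 to 0.991 within CC, 0.953 to 0.984 within CC after IVM and 0.891 to 0.930 between them.

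Levels are given as log2 processed signal relative to the 75th percentile of the same array, so that 0 is the brightness of a probe at that percentile. Differences are CC after IVM minus CC on the same log2 scale, with the standard error (SE) and the Benjamini-Hochberg adjusted p of limma over all 22550 genes. A gene is said to have risen or fallen if it was expressed and its adjusted p was under 0.05. A lower level can come from fewer cells of a type in the sample or from less RNA per cell, which cannot be told apart here.

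Maturation for 4 h went along with changes in many genes and in both directions. Of the expressed genes, 6683 passed the test (45.3%), against 10332 (45.8%) of all genes on the array. The latter count takes in 3604 genes called higher that were not expressed. Expressed genes that rose numbered 3223 (21.8%) and those that fell 3460 (23.4%), and the median difference over the expressed genes was 0.01. Among the 12837 genes expressed in both groups, 2825 rose (22.0%) and 2880 fell (22.4%), with a median difference of 0.05.

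The largest changes were rises. A rise of at least 4 on the log2 scale, which is 16-fold, was seen in 77 genes expressed in both groups, and a fall of that size in 14. At the level of 32-fold there were 34 rises and 1 fall, while at 2-fold there were 1773 rises and 2005 falls. The plot of difference against level shows the longer upper tail.

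**Figure D1:**
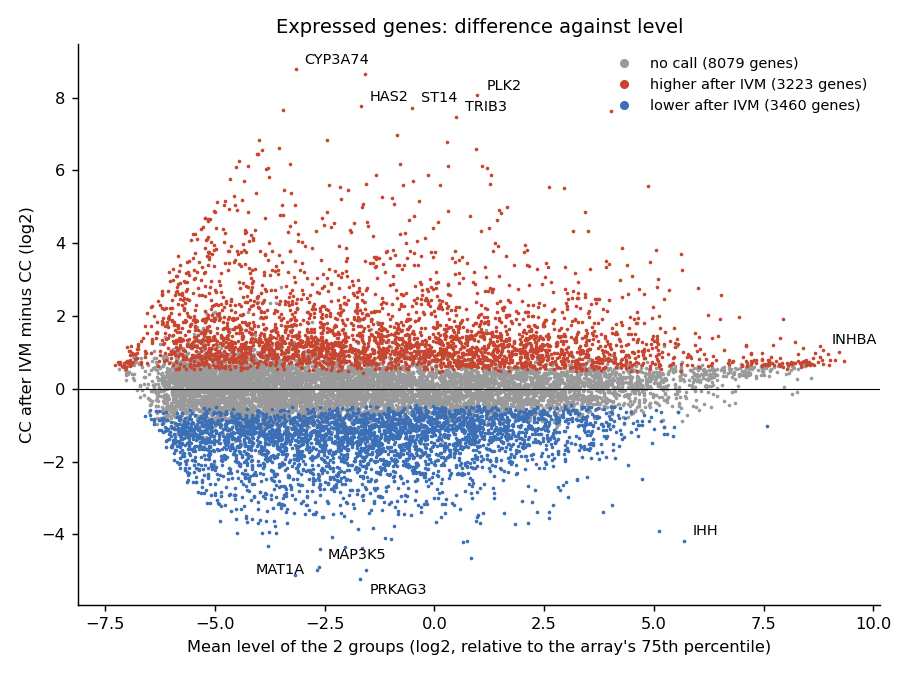
Each point is 1 of the 14762 expressed genes, with its mean level over both groups on the x axis (log2, relative to the array's 75th percentile) and the difference of CC after IVM minus CC on the y axis (log2). Red and blue points passed the test, and the upper tail reaches above 8 whereas the lower tail ends near -5.

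A further 162 genes were expressed after IVM and above background on no CC array, and 158 of them rose. Conversely, 443 genes were expressed in CC and above background on no array after IVM, and 262 of them fell while 6 were called higher. Both classes were chosen by the group in which a gene was detected. The direction of change is largely set by that choice, and the counts are a description. Another 7788 genes were not expressed, and of these 3604 were called higher and 45 lower. The median difference of the 7788 was 0.67, the arrays after IVM had the lower 75th percentiles given above, and no change is described for these genes. At this brightness a fall close to background could be missed.

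The HAS2, PLK2, ST14, MAT1A and MAP3K5 genes had been chosen to mark the matured cells with earlier results of these data known. Their values are therefore a description. Each was read by a pair of 60-base probes, and a 30-base stretch of each probe, for PLK2 of 1 probe only, is printed here so that the measured sequence can be placed, in the letters and direction of the array design. Capitals mark the letters AATAAA, where a probe holds them, and in ST14 the run that both probes share within the stretch shown.
HAS2 probe 1: ccaaaggaaattttacaggccgttggctgt
HAS2 probe 2: catgatagaaagAATAAAatgtttctctct
PLK2 probe 1: gctataattggagcagcttttggctgctta
ST14 probe 1: AGGGTGGGGTTCACTGTGTGTATTTGTgtg
ST14 probe 2: ccaAGGGTGGGGTTCACTGTGTGTATTTGT
MAT1A probe 1: aaagaagcccagatgaccgtaaacacctaa
MAT1A probe 2: tgcactgaactgtaggcctgaagcacaaaa
MAP3K5 probe 1: gctataataactcagccaaatgtttatgtc
MAP3K5 probe 2: gtgcatcactggaacaaaaccaaaatgtga
The array annotation placed HAS2 at chr14:19703611-19733798, PLK2 at chr20:20854607-20860584, ST14 at chr29:36933306-36971367, MAT1A at chr28:35870568-35887533 and MAP3K5 at chr9:75549283-75778418 of the UMD 3.1 cattle assembly. The ST14 probes share 57 of their 60 bases and are close to 1 measurement, while the paired probes of the other genes did not overlap. The letters AATAAA were searched in the printed direction only, and 2765 of the probes above background on all 8 arrays (11.9%) held them.

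HAS2 read -5.13, -6.31, -4.79 and -6.02 in CC, where only 2 arrays were above background, and 2.59, 1.50, 1.94 and 2.77 after IVM. All 4 matured arrays were far above all 4 CC arrays, and the difference was 7.76 ± 0.40 (adjusted p = 3.3e-06). The probes moved together, by 8.09 and 7.55. Since CC sat at the background of the array, the fold is given as a bound, which was at least 160-fold. Here and below a bound holds for the main processing only. For HAS2 the smallest log2 rise under the alternative settings was 5.14.

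PLK2, a polo-like kinase that is induced by growth signals in many cells, showed the largest rise among genes with a symbol that were expressed in both groups without overlap. It read -2.70, -3.35, -2.95 and -3.22 in CC and 4.93, 5.26, 4.65 and 5.22 after IVM. The groups lay far apart with little spread in either, and the difference was 8.07 ± 0.22 (adjusted p = 2.5e-07).

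ST14, which encodes the membrane serine protease matriptase, read -4.31, -5.18, -3.94 and -4.08 in CC. After IVM it read 2.79, 3.98, 2.71 and 3.91, again without overlap, and rose by 7.73 ± 0.38 (adjusted p = 3e-06).

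MAT1A, one of the enzymes that make S-adenosylmethionine, moved the other way. It read -0.10, -0.38, -0.50 and 0.27 in CC and -4.62, -5.61, -5.58 and -4.85 after IVM, a fall of 4.99 ± 0.29 (adjusted p = 5.4e-06). MAP3K5, a stress-activated kinase also called ASK1, read -0.26, -0.08, -0.33 and -0.09 in CC and -5.45, -5.87, -4.33 and -4.66 after IVM. It fell by 4.89 ± 0.32 (adjusted p = 8.9e-06). For both genes 1 probe was above background on no matured array and the other on 3, so that the lower end of these falls is set by the background.

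The plot by cell type sets matured CC beside the other cells of the series. In a fit over all 20 arrays PLK2 was 4.01 above TH, 8.97 above GC and 3.31 above oocytes (adjusted p = 3.6e-08, 6.1e-12 and 1.1e-07). HAS2 was 2.74 above oocytes (adjusted p = 1e-07), and in TH and GC it was above background on 0 and 1 of 4 arrays. MAP3K5 was 0.87 below TH (adjusted p = 0.02) and 4.03 below GC (adjusted p = 4.8e-09). MAP3K5 read 1.81 above oocytes (adjusted p = 1.7e-05), where it was above background on 2 arrays, but no difference is claimed. The 75th percentile was 1521 to 2891 on the oocyte arrays and 284 to 396 after IVM, so background reads lower in oocytes on this scale. FOXL2, above background on no matured or oocyte array, also read 1.75 higher than in oocytes. CYP3A74, a drug- and steroid-metabolizing cytochrome P450, was not above background in CC or GC, whereas its mean level was 0.14 in oocytes and 1.23 after IVM, a difference of 1.09 ± 0.47 (adjusted p = 0.04). In TH, CYP3A74 was above background on 4 arrays at a mean level of -5.10.

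**Figure D2:**
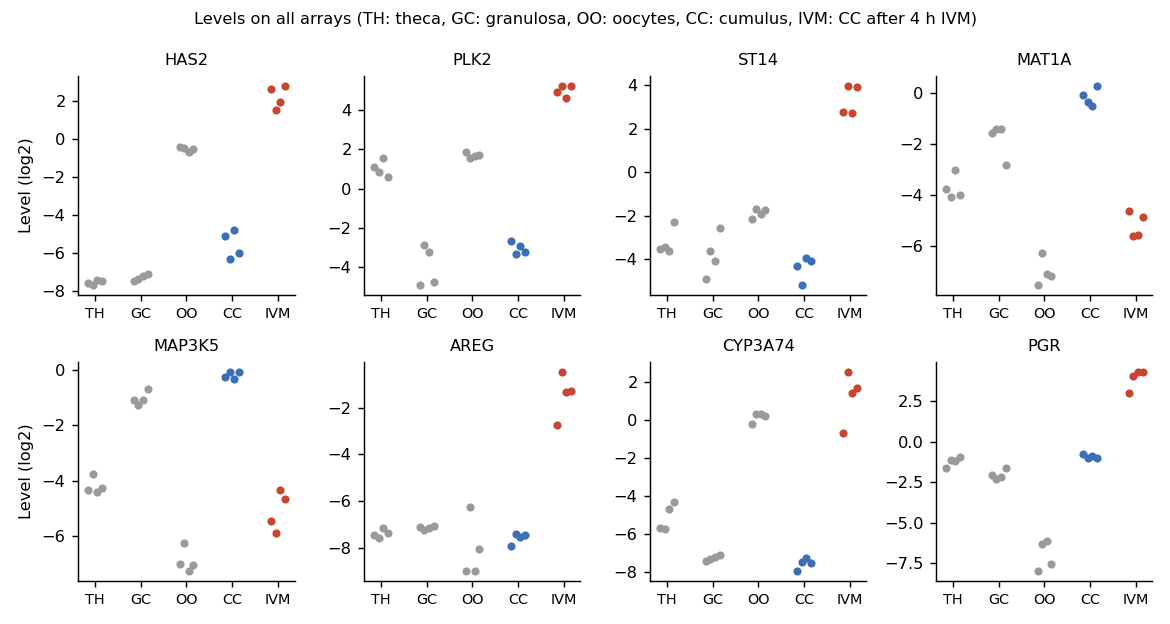
Points are single arrays of TH, GC, oocytes (OO), CC and CC after IVM, and the y axis is the level (log2, relative to the array's 75th percentile; each panel has its own range). HAS2, PLK2, ST14, AREG and PGR are highest after IVM, and MAT1A and MAP3K5 are highest in CC before it.

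The next rankings cover only genes with a symbol that were expressed in both groups and did not overlap. Beside these markers, the 12 with the largest rises included TRIB3, FGFR2, PSAT1, LRRN3, MYOM2, SLC39A8, BMP2, SLC1A4, FGF2 and PSPH, and their rises ranged from 5.87 for PSPH to 7.48 for TRIB3. A receptor and its ligand were among them. FGFR2, a receptor for fibroblast growth factors, read -4.18, -4.82, -4.01 and -4.31 in CC and 1.75, 2.74, 2.92 and 3.17 after IVM, a rise of 6.98 ± 0.32 (adjusted p = 2.3e-06). FGF2, a fibroblast growth factor, read -1.40, -2.16, -1.95 and -1.11 in CC and 3.37, 4.87, 4.16 and 4.50 after IVM, a rise of 5.88 ± 0.35 (adjusted p = 6.2e-06). Neither gene showed overlap between the groups. SLC39A8, a zinc transporter, rose by 6.12 ± 0.33 (adjusted p = 3.6e-06), and MYOM2, known as a protein of muscle sarcomeres, by 6.16 ± 0.39 (adjusted p = 7.3e-06).

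The 12 largest falls, ranked among the same genes with a symbol, were those of PRKAG3, PNMAL1 (PNMA8A), MAT1A, MAP3K5, CCDC8, FAM110D, C28H10ORF10, ACSBG1, FBXO10, LRRC45, IHH and KRT73. They ranged from 4.13 for KRT73, a keratin, to 5.24 for PRKAG3. PRKAG3, a regulatory subunit of the energy sensor AMPK, read 1.18, 0.30, 1.11 and 1.14 in CC and -3.15, -6.11, -4.28 and -3.67 after IVM. It was above background on 3 of the matured arrays, and the fall was 5.24 ± 0.56 (adjusted p = 0.00011). IHH, a hedgehog ligand made by follicular somatic cells, read 7.86, 7.86, 7.68 and 7.65 in CC and 4.19, 2.15, 4.25 and 3.76 after IVM, so it stayed bright on every array while it fell by 4.18 ± 0.42 (adjusted p = 8.1e-05).

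Of the named genes expressed after IVM and on no CC array, 133 rose, a direction largely set by that choice. The 5 with the largest bounds were CYP3A74, IL-8 (CXCL8), SLC19A2, P2RY1 and FAM216B. CYP3A74 read -7.94, -7.45, -7.28 and -7.53 in CC and -0.69, 2.53, 1.41 and 1.67 after IVM. No CC array was above background, and the gene was at least 99.7-fold higher (adjusted p = 7.9e-06). SLC19A2, a thiamine transporter, was at least 36.9-fold higher (adjusted p = 4.5e-06), and P2RY1, a purine receptor, at least 36.0-fold (adjusted p = 2.2e-06). FAM216B was at least 28.5-fold higher (adjusted p = 1.2e-05). Under the alternative settings the smallest log2 rises were 4.60 for CYP3A74, 3.67 for IL-8, 3.21 for SLC19A2, 3.13 for P2RY1 and 3.00 for FAM216B. None of these genes lost its call.

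In the opposite direction 228 named genes were expressed in CC, fell, and were above background on no array after IVM. The 5 largest bounds were smaller than those of the rises, from at least 3.32-fold lower for ZNF454 to at least 4.97-fold lower for TTC30B (IFT70B), with FOXL2, PTER and CEP57L1 between them. These bounds hold for the main processing only. Under the alternative settings the smallest log2 differences were -0.26 for ZNF454, -0.36 for CEP57L1, -0.50 for PTER, -0.61 for TTC30B and -0.67 for FOXL2. ZNF454 lost its call in 1 of 27 settings. FOXL2, the transcription factor that maintains granulosa identity, read -2.48, -1.09, -3.60 and -2.90 in CC and -6.27, -6.31, -5.56 and -6.18 after IVM. All matured arrays lay at background, and FOXL2 was at least 4.68-fold lower (adjusted p = 0.00037).

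The gene groups that follow are described by counts, to be read against the 21.8% of expressed genes that rose and the 23.4% that fell. A member expressed in 1 group only entered through the group that detected it, which was usually the group where it was higher. Of 1481 genes expressed in CC only, 580 fell and 33 were called higher. Each median, and a second count where it differs, is therefore over members expressed in both groups, for which the median of all genes was 0.05.

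Genes of the hyaluronan matrix did not all move. Of 13 expressed members 5 rose, 1 fell and 7 did not pass the test. Of the 11 expressed in both groups 3 rose and 1 fell, with a median of 0.19. Beside HAS2, the rises were those of ADAMTS1, TSG-6, UGDH and CD44. ADAMTS1, a protease that cleaves versican in the matrix, read 0.08, -0.38, 0.40 and 0.70 in CC and 4.96, 6.32, 5.78 and 5.78 after IVM. It rose by 5.51 ± 0.33 (adjusted p = 6.1e-06) without overlap. TSG-6 (TNFAIP6), which transfers heavy chains onto hyaluronan, rose by 2.03 ± 0.52 (adjusted p = 0.013), and UGDH, which makes a sugar precursor of hyaluronan, by 1.64 ± 0.24 (adjusted p = 0.00069). CD44, the hyaluronan receptor, was above background on 0 CC arrays and 4 matured arrays. It passed the test (adjusted p = 0.021), but its bound was under 1, so no fold is given, and without CC replicate 1 its adjusted p was 0.06.

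Several known members of the expansion program showed no call at 4 h. PTX3, the pentraxin that crosslinks the matrix, read -0.67, -1.39, -0.25 and -0.33 in CC and -0.90, 0.61, -1.08 and -1.70 after IVM, so that the groups overlapped fully (difference -0.11 ± 0.46, adjusted p = 0.86). PGHS-2 (PTGS2), the inducible prostaglandin synthase, read -2.16, -3.05, -2.53 and -2.18 in CC and -2.67, -2.76, -3.02 and -1.63 after IVM (difference -0.04 ± 0.33, adjusted p = 0.93). VCAN, the proteoglycan versican, read 1.97, 1.51, 1.77 and 1.56 in CC. It read 1.83, 0.78, 2.30 and 3.09 after IVM, where the spread exceeded the difference of 0.30 ± 0.42 (adjusted p = 0.58). HMMR, a hyaluronan-binding protein of the mitotic spindle, was the member that fell, by 2.04 ± 0.32 (adjusted p = 0.0011), or by 0.25 with normexp (adjusted p = 0.072).

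**Figure D3:**
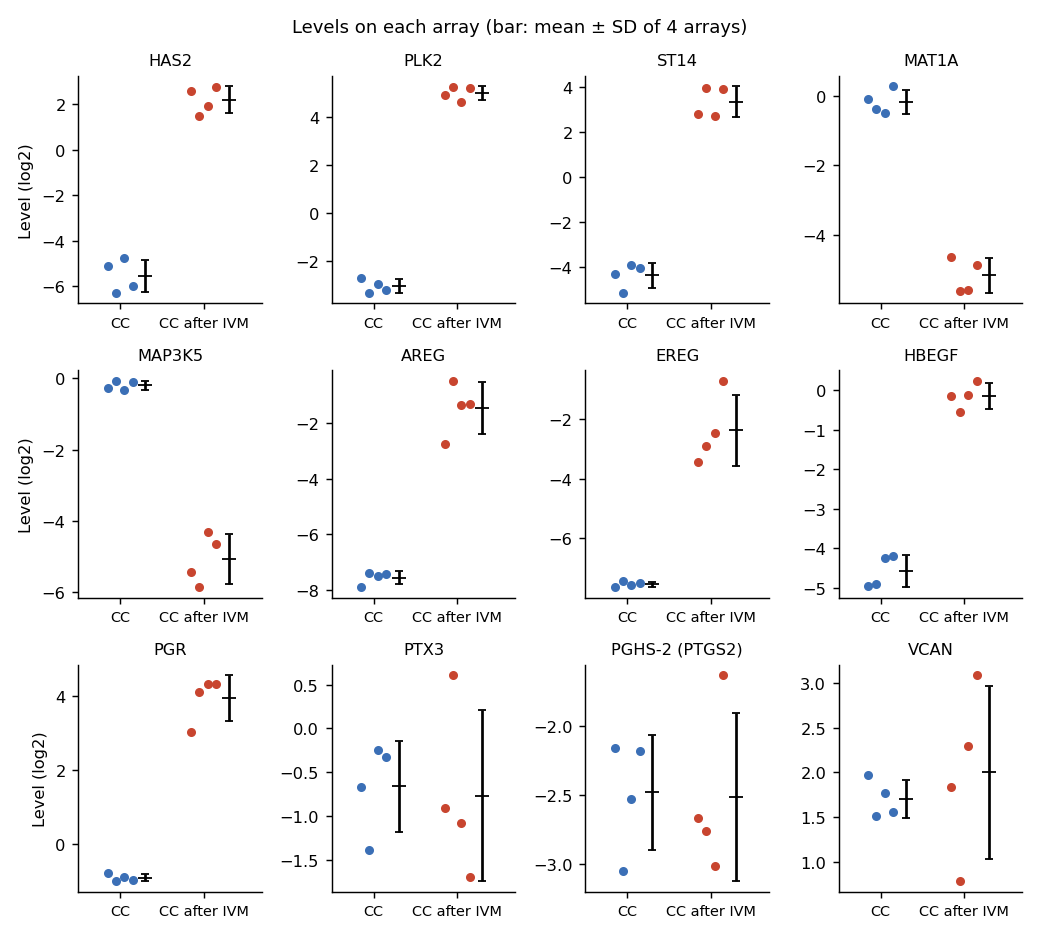
Each panel is 1 gene, points are the 4 arrays of CC (blue) and of CC after IVM (red), and the black bars are mean ± SD of 4 arrays, all as log2 levels with each panel on its own range. The first 9 genes are separated between the groups, MAT1A and MAP3K5 downwards and the others upwards, whereas PTX3, PGHS-2 and VCAN overlap.

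Among EGF-like ligands AREG, EREG and HBEGF rose and BTC fell. Of 12 expressed ligands, receptors and processing enzymes 5 rose, 4 fell and 3 did not pass. Of the 8 expressed in both groups 3 rose and 3 fell, with a median of -0.01. AREG (amphiregulin) read -7.91, -7.40, -7.52 and -7.45 in CC, all below background, and -2.74, -0.47, -1.35 and -1.29 after IVM, at least 15.4-fold higher (adjusted p = 9.8e-06). EREG (epiregulin) read -7.64, -7.44, -7.55 and -7.50 in CC and -3.45, -2.90, -2.49 and -0.73 after IVM, at least 8.12-fold higher (adjusted p = 6.1e-05). Both ligands were above background on no CC, TH, GC or oocyte array and on all 4 matured arrays. HBEGF, another ligand, read -4.96, -4.91, -4.25 and -4.20 in CC and -0.15, -0.56, -0.12 and 0.24 after IVM, a rise of 4.43 ± 0.26 (adjusted p = 6e-06). BTC (betacellulin) fell by 1.11 ± 0.25 (adjusted p = 0.0081, or 0.057 in the fit over all 20 arrays).

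Among the receptors, EGFR itself rose by 1.22 ± 0.27 (adjusted p = 0.0072) and ERBB3, a partner that binds neuregulins, fell by 2.55 ± 0.30 (adjusted p = 0.00019). ADAM17, the protease that releases AREG and EREG from the membrane, rose by 1.79 ± 0.29 (adjusted p = 0.0013). The related ADAM10 was 0.80 ± 0.24 lower (adjusted p = 0.025), but it did not pass without CC replicate 2, 3 or 4, with an adjusted p of up to 0.066. ERBB2 was above background on 4 CC arrays and 1 matured array and was at least 1.30-fold lower (adjusted p = 0.0016), whereas with normexp background correction the difference turned to 0.30.

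Immediate early genes, the transcription factors and regulators that respond first to a signal, moved in both directions. All 28 listed genes were expressed, of which 8 rose (28.6%), 6 fell (21.4%) and 14 did not pass, shares near the 21.8% and 23.4% of all expressed genes. Of the 25 expressed in both groups 7 rose and 5 fell, with a median of 0.14. NR4A3, an orphan nuclear receptor, read -4.32, -3.11, -5.33 and -3.71 in CC and 0.22, 0.98, 0.41 and 0.16 after IVM, a rise of 4.56 ± 0.43 (adjusted p = 5.7e-05). CREM, a cAMP-responsive transcription factor, rose by 4.25 ± 0.30 (adjusted p = 1.2e-05), although only 1 of its 2 probes passed. SIK1, a kinase induced by cAMP, rose by 3.23 ± 0.26 (adjusted p = 2.1e-05). FOSL1, above background on 1 CC array and all 4 matured arrays, was at least 5.09-fold higher (adjusted p = 1.7e-05), and NR4A2 and IER3 rose by 2.42 and 2.20.

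FOS, a classical member, was lower. It read 5.05, 6.67, 5.89 and 6.31 in CC and 3.41, 3.02, 4.12 and 3.43 after IVM, a fall of 2.48 ± 0.36 (adjusted p = 0.00072). JUN, its partner in the AP-1 factor, read 4.94, 5.92, 5.43 and 5.89 in CC and 1.35, 2.68, 2.37 and 2.19 after IVM, a fall of 3.40 ± 0.33 (adjusted p = 6.4e-05). Both genes were bright in CC and lower on every matured array. ZFP36, which promotes decay of AU-rich mRNAs, fell by 3.70 ± 0.28 (adjusted p = 1.6e-05), and MYC by 2.51 ± 0.24 (adjusted p = 6.9e-05). EGR1 was 1.30 ± 0.40 lower with overlap of the groups (adjusted p = 0.027). Its call was lost without CC replicate 2 or 4 or CC after IVM replicate 1 or 4, with an adjusted p of up to 0.07. EGR4, above background on no matured array, passed downwards with a bound under 1, and was 0.22 higher with normexp. ATF3 (0.39 ± 0.38, adjusted p = 0.42) and NR4A1 (0.53 ± 0.22, adjusted p = 0.075) did not pass, although NR4A1 did so without CC after IVM replicate 1 (adjusted p = 0.042).

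Feedback inhibitors of ERK signaling moved in both directions. Of 10 expressed members 1 rose and 3 fell, and the 9 expressed in both groups had a median of 0.34. DUSP6, a phosphatase that inactivates ERK, read 4.27, 3.70, 4.25 and 3.93 in CC and -0.44, 1.48, 0.68 and 0.84 after IVM, a fall of 3.40 ± 0.37 (adjusted p = 0.00012). DUSP1 fell by 1.66 ± 0.40 (adjusted p = 0.01) and SPRY1 by 1.42 ± 0.28 (adjusted p = 0.0037). PHLDA1 rose by 1.99 ± 0.36 (adjusted p = 0.0025). SPRY2 did not pass (0.77 ± 0.39, adjusted p = 0.13) except without CC after IVM replicate 1 (adjusted p = 0.034), and SPRY4 was not expressed.

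Of 15 expressed steroid genes 5 rose, 8 fell and 2 did not pass. Of the 14 expressed in both groups 5 rose and 7 fell, with a median of -1.07. The largest of these changes was in PGR, the progesterone receptor that follicle cells induce before ovulation, which read -0.78, -0.98, -0.88 and -0.97 in CC and 3.02, 4.09, 4.31 and 4.33 after IVM. It rose by 4.84 ± 0.29 (adjusted p = 6.4e-06), and its level was 5.15 above TH and 5.96 above GC (adjusted p = 1.2e-09 and 5e-10). SCARB1, the receptor for HDL cholesterol, rose by 1.67 ± 0.36 (adjusted p = 0.006), and FDX1, which feeds electrons to steroidogenic enzymes, by 1.39 ± 0.21 (adjusted p = 0.00081).

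STAR and CYP11A1, which bring cholesterol into mitochondria and cleave it, were higher with overlapping groups. STAR read -3.89, -3.81, -3.10 and -1.81 in CC and -2.09, -0.66, -0.90 and -2.11 after IVM (1.71 ± 0.51, adjusted p = 0.024). Its call was lost without CC replicate 1, 2 or 3 or CC after IVM replicate 2 or 3, with an adjusted p of up to 0.068. CYP11A1 differed by 0.77 ± 0.26 (adjusted p = 0.034), and its call was lost without CC replicate 1, 2 or 3 or CC after IVM replicate 3 or 4, with an adjusted p of up to 0.088.

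The falls were led by NR5A2, a nuclear receptor needed for ovulation, which read 1.07, 1.60, 1.34 and 1.66 in CC and -1.64, -2.62, -1.20 and -1.54 after IVM (3.17 ± 0.31 lower, adjusted p = 6.6e-05). FDXR fell by 1.98 and HSD3B (HSD3B1), which makes progesterone, by 1.37 ± 0.24 (adjusted p = 0.002). NR5A1, a regulator of steroid enzymes, was 1.39 lower (adjusted p = 0.00077), with 1 of its 2 probes passing. It was 0.08 lower with normexp (adjusted p = 0.58) and 0.06 lower with the brightest probe alone (adjusted p = 0.88). CYP19A1, the aromatase that makes estradiol, read 0.23, 0.52, -0.55 and 0.84 in CC and -1.62, -1.35, 0.10 and -1.12 after IVM. The groups overlapped through CC replicate 3 and CC after IVM replicate 3, and the difference of -1.26 ± 0.41 (adjusted p = 0.032) lost its call when CC replicate 1, 2 or 4 or CC after IVM replicate 1, 2 or 4 was left out. FSHR, the receptor for follicle-stimulating hormone, differed by -1.25 ± 0.39 (adjusted p = 0.028). This call was lost without CC replicate 1, 3 or 4 or CC after IVM replicate 4 (adjusted p up to 0.069), and with the brightest probe alone the difference was 0.07. NR0B1 was above background on no matured array and passed downwards with a bound under 1, but was 0.34 higher with normexp. ESR2 passed with all arrays (adjusted p = 0.049) and was lost in 6 of the 8 fits that left out 1 array, with an adjusted p of 0.11 without CC replicate 1. LHCGR was not expressed.

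All 23 cholesterol synthesis and uptake genes were expressed, 10 rose, 2 fell and 11 did not pass, with a median of 0.45. CYP51A1, which demethylates lanosterol, rose most, by 2.11 ± 0.21 (adjusted p = 7.7e-05), and SREBF2, the transcription factor of the pathway, by 1.61 ± 0.32 (adjusted p = 0.0041). IDI1 and NSDHL, enzymes of the same pathway, rose by 1.43 and 1.36. STARD4 was 1.39 higher but lost its call in 7 of 8 fits that left out 1 array. HMGCS1 (-0.37 ± 0.24, adjusted p = 0.23) and SQLE (0.45 ± 0.22, adjusted p = 0.12) did not pass. LSS, lanosterol synthase, fell by 1.53 ± 0.20 (adjusted p = 0.00032) and FDFT1 by 1.00 ± 0.21 (adjusted p = 0.0061).

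Of 10 expressed prostaglandin genes 5 fell and 2 rose. The 9 expressed in both groups held 5 falls and 1 rise, with a median of -1.04. PTGES2, a prostaglandin E synthase, read -1.45, -0.38, -1.06 and -0.91 in CC and -3.41, -4.37, -2.91 and -4.04 after IVM, a fall of 2.73 ± 0.35 (adjusted p = 0.00032). PTGES, the inducible synthase, fell by 2.42 ± 0.40 (adjusted p = 0.0014). PLA2G4A, which frees arachidonic acid, fell by 1.49, and PTGFRN and PTGS1 by 1.19 and 1.04. Across the alternative settings the smallest log2 difference of PLA2G4A was -0.48. The rises were SLCO2A1, the prostaglandin transporter, at least 5.46-fold higher with no CC array above background (adjusted p = 0.00073), and PTGES3 at 0.83. PTGER2 was not expressed.

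Heat shock and ER stress genes mostly rose. All 18 were expressed, 12 rose, 1 fell and 5 did not pass, and the median was 1.73. TRIB3, a pseudokinase induced by the transcription factors ATF4 and DDIT3, read -3.43, -3.70, -2.86 and -2.97 in CC and 3.70, 4.16, 4.58 and 4.52 after IVM, a rise of 7.48 ± 0.27 (adjusted p = 7e-07). ATF4 itself rose by 1.97 ± 0.24 (adjusted p = 0.00022), DDIT3 by 2.19 ± 0.56 (adjusted p = 0.014) and their target ASNS, asparagine synthetase, by 2.73 ± 0.29 (adjusted p = 0.0001). DNAJB9, ERP70 (PDIA4) and XBP1, of the unfolded protein response, rose by 2.46 to 2.84, and SESN2 by 2.26. CHAC1 (-0.15 ± 0.41, adjusted p = 0.78) and HERPUD1 (-0.11 ± 0.60, adjusted p = 0.89), also known targets, did not pass. HSPA1A, the inducible heat shock protein, fell by 2.68 ± 0.41 (adjusted p = 0.00096).

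CDKN1A, the cell cycle inhibitor p21, read 0.95, 1.69, 1.06 and 1.65 in CC and 5.18, 5.99, 5.54 and 5.94 after IVM, a rise of 4.33 ± 0.27 (adjusted p = 6.5e-06). Of the 13 expressed G1 cyclins and CDK inhibitors 3 rose (23.1%), 4 fell (30.8%) and 6 did not pass, near the 21.8% and 23.4% of all expressed genes. Of the 11 expressed in both groups 3 rose and 3 fell, with a median of 0.29. CDKN1C rose by 2.19 ± 0.55 (adjusted p = 0.012), and CCND3 and CDKN2D fell by 1.52 and 1.39. CDKN2C, above background on 1 matured array, was at least 1.38-fold lower but 0.11 higher with normexp. CCND1 (0.78, adjusted p = 0.044) lost its call in 6 of 8 fits that left out 1 array and CDKN1B (-0.57, adjusted p = 0.031) in the 4 that left out a CC array. CCND2 did not pass (-0.58 ± 0.29, adjusted p = 0.12) except without CC after IVM replicate 3 (adjusted p = 0.028).

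Of 23 expressed replication and mitosis genes 19 fell and 1 rose. Of the 21 expressed in both groups 17 fell, with a median of -1.20. Subunits of the MCM helicase led the list. MCM3 read 1.76, 2.00, 2.28 and 2.12 in CC and -1.18, -1.09, -0.69 and -1.69 after IVM, a fall of 3.20 ± 0.24 (adjusted p = 1.7e-05). MCM2, above background on 1 matured array, was at least 3.65-fold lower (adjusted p = 0.00091). CDT1, which loads the helicase, fell by 2.95 ± 0.21 (adjusted p = 1.1e-05) and TOP2A by 1.94. MKI67, a proliferation marker, was 0.92 ± 0.23 lower (adjusted p = 0.013), but 0.10 lower with normexp (adjusted p = 0.43) and at an adjusted p of 0.07 in the fit over all 20 arrays. CCNB1, a mitotic cyclin, was 0.74 ± 0.21 lower (adjusted p = 0.022), at 0.099 over all 20 arrays, and lost without CC replicate 2 or CC after IVM replicate 4 (adjusted p up to 0.056). PCNA did not pass (-0.05 ± 0.27, adjusted p = 0.89), and RRM2, a ribonucleotide reductase subunit, rose by 1.45 ± 0.23 (adjusted p = 0.0012).

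The polo-like kinases, all 5 expressed, went in both directions. PLK2 and PLK3, which act outside mitosis, rose by 8.07 and 1.99, while the mitotic PLK1 fell by 3.16 ± 0.34 (adjusted p = 0.00012) and PLK4, of centriole duplication, by 0.78 ± 0.18 (adjusted p = 0.0074). PLK5 did not pass.

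**Figure D4:**
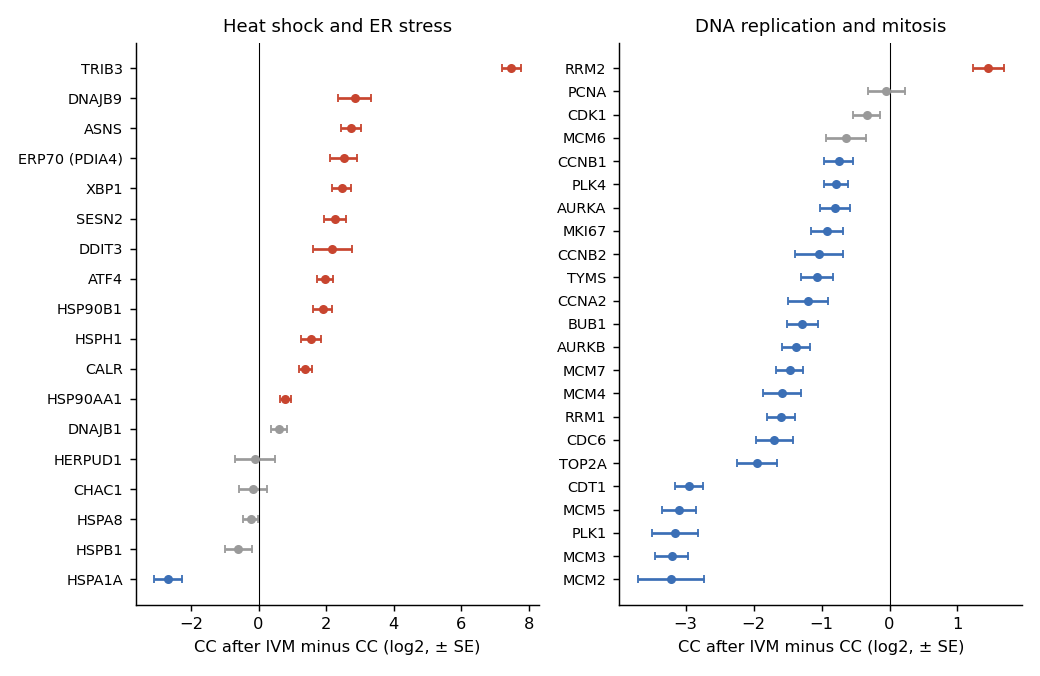
Points are the differences of CC after IVM minus CC (log2) and bars are the SE of the fit, for 18 heat shock and ER stress genes on the left and 23 replication and mitosis genes on the right. Red rose, blue fell and grey did not pass; 12 of the left set are red and 19 of the right set are blue.

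Proteases and their inhibitors rose in 10 of 20 expressed members, with 1 fall. The 19 expressed in both groups held all 10 rises, with a median of 0.98. PLAUR, the receptor that places urokinase at the cell surface, read -1.49, -2.37, -0.04 and -0.02 in CC and 2.71, 5.34, 3.59 and 4.08 after IVM, a rise of 4.91 ± 0.65 (adjusted p = 0.00039). MMP9, a gelatinase, read -2.02, -2.48, -1.80 and -2.28 in CC and 1.69, 4.34, 2.05 and 2.90 after IVM, a rise of 4.89 ± 0.50 (adjusted p = 9.2e-05). Inhibitors rose beside them. SERPINB2, a plasminogen activator inhibitor, rose by 4.65 ± 0.67 (adjusted p = 0.00066), and TIMP2, a metalloprotease inhibitor, by 3.29 ± 0.43 (adjusted p = 0.00035). PLAT, tissue plasminogen activator, rose by 2.35 ± 0.50 (adjusted p = 0.0054), whereas PLAU, urokinase, did not pass (0.02 ± 0.27, adjusted p = 0.95). SPINT1, the inhibitor of matriptase, was not expressed. ADAMTS9, above background on 0 matured arrays, passed downwards with a bound under 1, but was 0.36 higher with normexp.

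MAT1A stood among methionine and one-carbon genes, of which 17 were expressed, 3 rose, 8 fell and 6 did not pass. Of the 16 expressed in both groups 7 fell, with a median of -0.34. CTH and CBS, which turn homocysteine into cysteine, rose by 3.92 ± 0.32 and 1.75 ± 0.34 (adjusted p = 2.6e-05 and 0.0035). MTHFD2, a mitochondrial folate enzyme, rose by 3.60 ± 0.29 (adjusted p = 2.5e-05). MTRR, which reactivates methionine synthase, fell by 2.25 ± 0.22 (adjusted p = 6.8e-05), and its cytosolic neighbour in the folate cycle MTHFD1 by 1.82 ± 0.24 (adjusted p = 0.00037). For MTRR the smallest log2 difference under the alternative settings was -0.42. MAT2A, the other gene for the enzyme that MAT1A encodes, did not pass (0.29 ± 0.25, adjusted p = 0.37). BHMT2, a methyltransferase of methionine metabolism, was above background on 0 matured arrays and passed downwards with a bound under 1, but was 0.35 higher with normexp.

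Of the MAP3K kinases, the upstream kinases of MAPK cascades, 14 were expressed, 3 rose (21.4%) and 4 fell (28.6%), near the 21.8% and 23.4% of all expressed genes. The 11 expressed in both groups had a median of -0.22. MAP3K6, the closest relative of MAP3K5, fell by 2.95 ± 0.19 (adjusted p = 7.8e-06). MAP3K12 and MAP3K13, which activate JNK, fell by 2.03 and 1.96, and their smallest log2 differences under the alternative settings were -0.57 and -1.23. MAP3K2 and MAP3K8 rose by 1.80 and 1.17, and MAP3K7 was 0.57 higher with a call that was lost in 7 of 8 fits that left out 1 array.

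Genes of glucose use showed no common direction. Of 18 expressed members 2 rose and 6 fell, and the median was -0.26. HK2, the inducible hexokinase, read 1.73, 2.13, 1.65 and 1.72 in CC and 4.58, 4.37, 5.08 and 4.98 after IVM, a rise of 2.95 ± 0.22 (adjusted p = 1.7e-05). SLC2A1, the glucose transporter GLUT1, rose by 1.51 ± 0.22 (adjusted p = 0.00064). SLC16A3, a lactate exporter, read 3.99, 4.61, 4.14 and 4.47 in CC and 1.68, 0.37, 1.09 and 1.25 after IVM, a fall of 3.20 ± 0.29 (adjusted p = 4.5e-05). PFKM and PFKP, the muscle and platelet forms of phosphofructokinase, fell by 2.38 and 1.31, GPI by 1.29 and HK1 by 1.20, though 1 of 4 HK1 probes rose. The smallest log2 difference of PFKM under the alternative settings was -0.70. SLC2A3 was 1.79 ± 0.48 lower (adjusted p = 0.018), or 0.051 without CC replicate 1. LDHA (0.08 ± 0.29, adjusted p = 0.84) and PFKFB3 (0.32 ± 0.32, adjusted p = 0.43) did not pass.

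In the group of gap junction and cyclic nucleotide genes, 6 of 17 expressed members rose and 5 fell. Of the 12 expressed in both groups 4 rose and 2 fell, with a median of 0.35. Phosphodiesterases break down cAMP and cGMP. PDE5A, which acts on cGMP, was at least 5.14-fold higher (adjusted p = 0.00074) and PDE4B, which acts on cAMP, at least 4.41-fold (adjusted p = 3.7e-05), with 1 and 2 CC arrays above background. PDE10A rose by 1.98, while PDE7B, above background on 1 matured array, was at least 3.14-fold lower (adjusted p = 0.0042), but not called with normexp (0.30 lower, adjusted p = 0.1). GJA1, the main gap junction protein of CC, was 0.78 ± 0.20 higher (adjusted p = 0.015), but 0.18 with quantile normalization (adjusted p = 0.52) and 0.32 in the deposited values (adjusted p = 0.12). NPPC, the peptide that keeps the oocyte arrested, was 1.01 ± 0.18 higher (adjusted p = 0.0023), but 0.08 with the brightest probe alone (adjusted p = 0.85). Its receptor NPR2 did not pass (-0.07 ± 0.24, adjusted p = 0.83). GUCY1A1, a guanylate cyclase subunit, fell by 1.24 ± 0.26 (adjusted p = 0.0048), or by 0.10 with normexp (adjusted p = 0.45). NPR1 (0.80, adjusted p = 0.036) and GJA4 (-0.58, adjusted p = 0.048) lost their calls in 5 and 6 of 8 fits that left out 1 array. GJA4, ADCY9 and NPR3 passed downwards but were 0.22, 0.31 and 0.14 higher with normexp, and the bounds of GJA4 and ADCY9 were under 1.

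TGF-beta family genes included a large rise of the ligand BMP2 and rises of inhibitors. Of 25 expressed members 9 rose, 7 fell and 9 did not pass. Of the 22 expressed in both groups 7 rose and 6 fell, with a median of 0.25. BMP2, a bone morphogenetic protein, read -3.41, -3.98, -2.09 and -1.52 in CC and 2.63, 4.14, 3.34 and 3.33 after IVM, a rise of 6.11 ± 0.53 (adjusted p = 3.6e-05). GREM1, a secreted BMP antagonist and a known marker of cumulus response to the oocyte, read -4.03, -3.79, -3.36 and -4.00 in CC and -1.07, -1.53, -0.62 and -0.40 after IVM. It rose by 2.89 ± 0.28 (adjusted p = 6.7e-05). ID1, a BMP target, rose by 2.57 ± 0.54 (adjusted p = 0.0055) and BAMBI, a decoy receptor, by 2.00 ± 0.32 (adjusted p = 0.0013). TGFBR2 rose by 3.92 ± 0.39 (adjusted p = 7.3e-05), and SMAD7, above background on 2 CC arrays, was at least 1.41-fold higher. INHBA, the activin subunit, was 1.07 ± 0.17 higher (adjusted p = 0.0011), but 0.28 with quantile normalization (adjusted p = 0.21). INHA, the inhibin subunit, was 0.64 ± 0.18 higher (adjusted p = 0.02), but the difference was -0.17 with quantile normalization, and its adjusted p was up to 0.054 without CC replicate 2 or CC after IVM replicate 4.

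Falls in this family were of 1.03 ± 0.27 for FST, the activin-binding follistatin (adjusted p = 0.016), and of 1.04 ± 0.28 for AMH (adjusted p = 0.018). SMAD3 fell by 1.34 and ACVR2B by 1.17, but under the alternative settings their smallest log2 differences were -0.32 and -0.44. AMHR2, the receptor of AMH, was above background on no matured array and at least 1.95-fold lower (adjusted p = 0.00052), with 1 of its 4 probes higher, and 0.03 lower with normexp (adjusted p = 0.82). TGFBR3 was 1.09 lower with neither of its probes passing and 0.02 higher with normexp.

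Of 18 expressed cytokine and NF-kappaB genes 11 rose and 1 fell, but 9 of the 18 were expressed in 1 group only and entered through it. Of the 9 expressed in both groups 2 rose and 1 fell, with a median of 0.13. IL-8 (CXCL8), a neutrophil attractant, read -7.86, -7.38, -6.43 and -7.41 in CC and 1.33, 1.07, 0.32 and -1.19 after IVM, at least 55.4-fold higher (adjusted p = 1.1e-05). IL11 was at least 18.8-fold (adjusted p = 2.5e-05) and CXCL2 at least 17.1-fold higher (adjusted p = 4.2e-05), and IL1A, on 3 matured arrays, at least 2.92-fold (adjusted p = 0.0071). IL1B, above background on 1 CC array, was at least 5.08-fold higher (adjusted p = 0.00015). SOCS2, an inhibitor of cytokine signaling, rose by 3.76 ± 0.18 (adjusted p = 3e-06), and IL6ST, the shared receptor of IL6 and IL11, by 2.82 ± 0.39 (adjusted p = 0.00048). IL6 was above background on 1 CC array and 4 matured arrays and was at least 1.02-fold higher (adjusted p = 0.0044), while IL6R fell by 1.68 ± 0.19 (adjusted p = 0.00016). SOCS3 (0.12 ± 0.38, adjusted p = 0.81) and BIKBA (NFKBIA, -0.33 ± 0.44, adjusted p = 0.55) did not pass, the latter except without CC after IVM replicate 2 (adjusted p = 0.031).

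White blood cells also make these cytokines, and some of their markers moved with them. CD68 and CD14, markers of macrophages, were 2.15 ± 0.37 and 2.33 ± 0.83 higher after IVM (adjusted p = 0.0019 and 0.043), and LYZ was 1.47 higher (adjusted p = 0.02). VWF, of endothelium, was above background on 1 CC and 3 matured arrays and at least 1.64-fold higher (adjusted p = 0.0039). CD14 lost its call in 6 of 8 fits that left out 1 array, and LYZ without CC replicate 1 (adjusted p = 0.057). PTPRC (CD45), carried by all white blood cells, and CDH5, of endothelium, were above background on no array of either group. HBA, of red blood cells, did not pass (-0.02 ± 0.26, adjusted p = 0.95), and HBB and PECAM1 were not expressed. In all, 5 of 9 blood and endothelium markers were expressed and 4 of them passed, upwards. Of the 4 expressed in both groups 3 rose, with a median of 1.81. The summed level of all 9 was 4.64 to 5.58 in CC and 4.93 to 5.53 after IVM. HBA made up most of that sum, and without it the sum was -2.56 to -1.14 in CC and -0.30 to 1.10 after IVM, higher on every matured array. The part of such cells in the cytokine values was not tested.

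All 8 cumulus and granulosa markers were expressed, and their summed level was 9.71 to 9.84 in CC, 10.40 to 10.73 after IVM and 2.11 to 2.47 in oocytes, and without INHA and INHBA, which carried most of it, 7.17 to 7.32 in CC and 7.02 to 7.82 after IVM. FOXL2 was above background on no matured array, and KITLG on 1 CC array. Within this list 3 rose, 4 fell and KITLG did not pass (0.86 ± 0.39, adjusted p = 0.094), except without CC after IVM replicate 2 (adjusted p = 0.02). Of the 6 expressed in both groups 3 rose and 3 fell, with a median of -0.20. Of 7 theca markers 6 were expressed and 0 passed in limma, and COL1A1 was the 1 with an unadjusted p under 0.05. The summed level of the 7 was 4.74 to 5.09 in CC, 4.59 to 4.94 after IVM and 9.35 to 9.82 in TH. CYP17A1, the androgen-making enzyme of theca, was above background on no array of either group. The part of theca RNA in these samples was not tested. For COL1A1 the difference of -1.10 ± 0.44 (adjusted p = 0.063) passed without CC after IVM replicate 2 (adjusted p = 0.014).

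Of 9 oocyte markers 6 were expressed, of which 4 fell. Of the 3 expressed in both groups 1 fell. ZP4, a protein of the egg coat, read -0.81, -1.08, -2.49 and 0.21 in CC and -3.01, -6.22, -6.11 and -2.59 after IVM, where 2 arrays were above background (at least 6.90-fold lower, adjusted p = 0.015), against a mean of 6.62 in oocytes. ZP2, on 2 matured arrays, was at least 4.81-fold lower (adjusted p = 0.018) and NLRP5, on 1, at least 2.65-fold (adjusted p = 0.028), and ZP3 (1.24 lower, adjusted p = 0.049) lost its call in 6 of 8 fits that left out 1 array. ZP2 was at an adjusted p of 0.05 without CC replicate 1, and NLRP5 at up to 0.07 without CC replicate 1 or CC after IVM replicate 2 or 3. GDF9 (-0.75 ± 0.46, adjusted p = 0.2) and BMP15 (-0.21 ± 0.38, adjusted p = 0.67) did not pass, and DAZL, DDX4 and FIGLA were not expressed. The summed level of the 9 was -0.77 to 1.67 in CC, -2.36 to -0.69 after IVM and 8.11 to 8.49 in oocytes. The part of oocyte RNA in other falls was not tested.

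Among BCL2 family genes, which set the threshold for apoptosis, 3 of 12 expressed members rose and 5 fell. Of the 9 expressed in both groups 2 rose and 4 fell, with a median of -0.14. BCL2A1, a survival member, read -7.95, -7.49, -4.20 and -7.38 in CC, where only replicate 3 was above background. After IVM it read 0.65, -0.70, -2.04 and -3.45, and the gene was at least 13.3-fold higher (adjusted p = 0.0026). MCL1 rose by 1.36 ± 0.26 (adjusted p = 0.0037), as did BCL2L11, a death-promoting member, by 1.93 ± 0.29 (adjusted p = 0.00092). BCL2L1, which encodes BCL-XL, fell by 2.14 ± 0.28 (adjusted p = 0.00034), BCL2L2 by 1.59 and BAD by 1.35. BAX, above background on 2 matured arrays, was at least 1.60-fold lower (adjusted p = 0.03) but 0.18 higher with normexp. Its call was lost in 5 and that of BID1 (BID) in 6 of 8 fits that left out 1 array. BCL2 did not pass (0.47 ± 0.44, adjusted p = 0.4).

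IGF system genes rose in 5 of 13 expressed members, with 1 fall. Of the 11 expressed in both groups 3 rose, with a median of 0.51. STC1, a secreted glycoprotein that blocks the protease PAPPA, read 2.95, 2.98, 3.40 and 3.25 in CC and 6.23, 8.21, 6.48 and 6.88 after IVM, a rise of 3.80 ± 0.39 (adjusted p = 9.1e-05). PAPPA itself, which frees IGF from its binding proteins, was above background on 1 CC array and at least 5.32-fold higher (adjusted p = 0.00064). IGFBP3, a binding protein, rose by 3.20 ± 0.45 (adjusted p = 0.00054) and IRS1, an adaptor of the IGF receptor, by 1.35 ± 0.26 (adjusted p = 0.0038). IGF-I (IGF1) was expressed through CC and above background on only 1 matured array, although it passed upwards. Its bound was under 1, and the difference was -0.11 with the brightest probe alone. IGF2R (-1.93, adjusted p = 0.023) lost its call without CC replicate 1 or 2 or CC after IVM replicate 1 or 4 (adjusted p up to 0.059). IGFR1 (IGF1R, 0.50 ± 0.52, adjusted p = 0.45) and IGFBP4 (-0.32 ± 0.28, adjusted p = 0.37) did not pass.

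Notch and WNT genes included 3 rises and 6 falls among 21 expressed members. Of the 18 expressed in both groups 1 rose and 6 fell, with a median of -0.48. FZD1, a WNT receptor, read 0.44, 0.59, 0.52 and 0.54 in CC and -4.37, -2.70, -2.85 and -3.32 after IVM, a fall of 3.83 ± 0.34 (adjusted p = 3.8e-05). DLL4, a Notch ligand, fell by 2.81 ± 0.43 (adjusted p = 0.00088). WNT2 was above background on 1 CC array and 4 matured arrays and at least 6.20-fold higher (adjusted p = 0.0047), and FZD6, likewise on 1 CC array, at least 2.74-fold (adjusted p = 0.00027). AXIN2, a target of WNT signaling, rose by 1.25 ± 0.33 (adjusted p = 0.016). HES1, SFRP4, CTNNB1 and LRP5 were 1.26, 1.23, 1.05 and 0.54 lower and lost their calls in 3, 2, 6 and 4 of 8 fits that left out 1 array, and LRP5 was 0.82 higher with the brightest probe alone. JAG1 (0.96 ± 0.56, adjusted p = 0.19) and NOTCH2 (-0.95 ± 0.48, adjusted p = 0.13) did not pass, NOTCH2 except without CC after IVM replicate 4 (adjusted p = 0.037).

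Across these 21 groups, marker lists aside, the medians over members expressed in both groups ran from 1.73 for heat shock and ER stress genes to -1.20 for replication and mitosis genes, against 0.05 for all such genes, as the plot of gene groups shows. Most groups held changes in both directions, and a member list says nothing of other genes of a pathway.

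**Figure D5:**
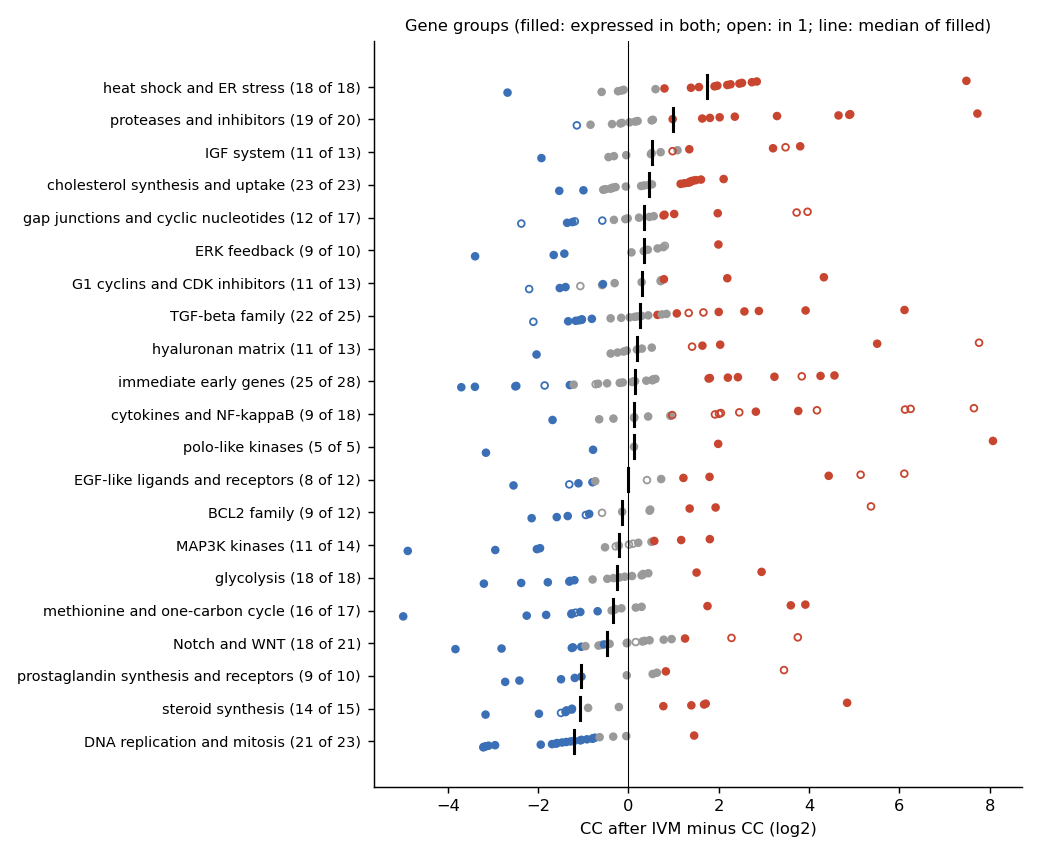
Each row is a gene group, with the number of members expressed in both groups of the number expressed in parentheses, and each point is a member's difference of CC after IVM minus CC (log2), filled if expressed in both groups and open if in 1. Red rose, blue fell and grey did not pass, and the rows are ordered by the median of the filled points (black line), from -1.20 at the bottom to 1.73 at the top.

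Most expressed genes were read by several probes. Of 14260 expressed genes with more than 1 probe sequence, 184 had a probe that passed upwards and another that passed downwards, and 3648 had a probe that was not expressed, which pulls the median over probes towards background. An expressed gene was read by 1 to 1861 spots.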

How the data were processed

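RNA of CC and of CC after IVM was measured on 8 of the 20 one-color Agilent arrays of the series, and the comparison with TH, GC and oocytes used all 20. The deposited scanner tables held each spot's processed signal intensity, background-subtracted by the authors' software (Agilent Feature Extraction 10.7.3.1, per the labels), and its background flags. The value table held log2 values deposited by the authors, which equalled log2 median signal centred on the array median. Here log2 processed signal minus the array's 75th percentile over 61325 non-control probes was taken, and spots were summarized to genes by their median, after the study's methods. Of 9779 probes without a gene name, 734 were named through RefSeq accessions (ARS-UCD2.0). limma 3.58.1 in R 4.3.3 compared the groups without covariates, with Benjamini-Hochberg adjustment over 22550 genes at 0.05, and was tested on made-up data first. For bounds, each array of the dim group was set to its dimmest probe flagged well above background, or to the gene's own level where higher. A bound computed this way holds for this processing only. Tables were made with Python. The number of arrays, 4 a group, limits the precision. The genes named in the report were the 5 markers, the 12 largest rises and 12 largest falls among genes with a symbol that did not overlap and were expressed in both groups, the 5 largest bounds in each direction, up to 6 called members of each list in each direction, and each list's defining members. A few genes and 1 probe that fell under this rule are not reported here. The members and lists were chosen with earlier results of these data known. Alternatives changed scaling, background correction (normexp, offset 50), probe summary, filters, arrays, blocks, weights and test, or left out 1 array.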

Additional observations from a re-analysis of the deposited data

Results flagged for a closer look

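A single array stood far from the other 3 of its group in 22 of 462 sets of 4 arrays examined over the named genes, and chance gives such a set about 1 time in 20. In CC replicate 2, IGFR1 stood at 0.32 (others -1.27 to -1.16), HK2 at 2.13, MTHFD2 at -3.44, PTGES3 at 4.00, PRKAG3 at 0.31 (others 1.11 to 1.18) and GJA4 at -5.44. In CC replicate 1, CCDC8 stood at 2.88, MTRR at -2.33 and YARS at 2.67, and in CC replicate 4 MYOM2 stood at -3.59 and SCARB1 at 4.85. In CC after IVM replicate 1, EGR1 stood at 4.28 (others 4.93 to 4.99), NR4A2 at 0.70, PDE5A at -4.75 (others -2.62 to -2.29) and SPRY1 at -1.98. In CC after IVM replicate 2, HMMR stood at -5.95, SREBF2 at -3.46, STARD4 at -4.67 and WNT2 at -0.86 (others -3.14 to -2.78). In CC after IVM replicate 3, PFKP stood at 0.57 and TXNRD1 at 5.33, and in CC after IVM replicate 4 QARS stood at 1.48.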

How the results depend on the processing

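Over the 14762 expressed genes, the count of genes that passed was 6683, and it was 3350 with the CC arrays of slide 1 only (1613 higher, 1737 lower), 3327 with those of slide 2 only (1489 higher, 1838 lower) and 3986 at an adjusted p of 0.01 (1865 higher, 2121 lower). Those settings hold fewer arrays or a stricter threshold. With normexp 6970 genes were higher and 2954 lower, 70.2% of calls upwards against 48.2% in the report, and of the genes that passed here 235 passed there in the opposite direction (22 with dim probes at the floor, chosen after seeing the data, and 7 with the brightest probe), and the cause was not tested. Leaving out 1 array gave 5257 to 6775 genes. The replicate block gave 5427 genes (2563 higher, 2864 lower). Deviations of same-numbered arrays correlated at -0.20 to -0.03, which gave no sign of pairing but cannot exclude it. The labels do not say whether the numbers pair the arrays. Slide as a random block gave 9685 genes over 8 arrays, with an estimated correlation of -0.26, and 7043 over all 20. Genes expressed numbered 14000 or 19323 under the other detection rules. Of 224 named genes that passed, 194 passed in all 8 fits that left out 1 array. Differences that turned over were, with normexp, ADAMTS9 0.36, ADCY9 0.31, BAX 0.18, BHMT2 0.35, BMP15 0.32, CDKN2C 0.11, EGR4 0.22, ERBB2 0.30, GJA4 0.22, NPR2 0.45, NPR3 0.14, NR0B1 0.34 and TGFBR3 0.0197. With dim probes at the floor they were ADAMTS9 0.32, ADCY9 0.23, BHMT2 0.0614, EGR4 0.0026 and NR0B1 0.16, with the brightest probe FSHR 0.065, IGF-I -0.11 and LRP5 0.82, with quantile normalization INHA -0.17, and with the deposited values ADAMTS9 0.0171. Dim signal on the matured arrays limits what can be said of genes near background.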

Other observations

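Genes of amino acid supply and of protection from oxidants were put into lists after their values were seen, so their counts are a description. All 3 enzymes of serine synthesis rose, PSAT1 by 6.77 ± 0.34 (adjusted p = 3.3e-06), PSPH by 5.87 ± 0.21 (adjusted p = 7e-07) and PHGDH by 1.42 ± 0.31 (adjusted p = 0.0062). PSAT1 read -3.42, -2.92, -2.94 and -3.09 in CC and 2.77, 4.53, 3.47 and 3.95 after IVM, with no overlap. Of 14 expressed amino acid transporters 9 rose and 1 fell. Of the 11 expressed in both groups 7 rose and 1 fell, with a median of 1.19. SLC1A4, which carries serine and alanine, rose by 6.06 ± 0.30 (adjusted p = 3.2e-06), and SLC7A11, which carries cystine, was at least 9.41-fold higher with no CC array above background (adjusted p = 0.0005). SLC43A2 fell by 2.12 ± 0.21 (adjusted p = 7.7e-05).

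Of 19 expressed aminoacyl-tRNA synthetases, which charge tRNAs with amino acids, 9 rose and 1 fell, with a median of 0.82. GARS, SARS and TARS rose by 2.87 to 3.55. KARS, DARS, HARS and LARS were among the 9 that did not pass, and the fall of QARS (0.68, adjusted p = 0.027) was lost without CC replicate 2, 3 or 4, with an adjusted p of up to 0.074. Of 14 expressed oxidative stress genes 4 rose and 1 fell. Of the 12 expressed in both groups 3 rose and 1 fell, with a median of -0.01. SRXN1, which restores peroxiredoxins, was above background on 1 CC array and at least 25.3-fold higher (adjusted p = 5.4e-06), and TXNRD1, thioredoxin reductase, rose by 1.97 ± 0.16 (adjusted p = 2.6e-05), while HMOX1, heme oxygenase, fell by 1.48 ± 0.20 (adjusted p = 0.00043) and NQO1 did not pass (-0.95 ± 0.42, adjusted p = 0.087).

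Over probes above background on all 8 arrays, those that hold AATAAA, the letters of the common polyadenylation signal, were higher in 19.6% and lower in 29.0% of cases, against 28.1% and 19.4% of probes without it. Probes that hold ATTTA, the core of AU-rich elements, were higher in 25.7% and lower in 24.4%, against 27.2% and 20.3%. Median differences by base content lay between -0.09 for probes above 55% G and C and 0.24 for those from 40 to 45%. Probes of a gene are not independent, and these shares are descriptions of the printed strand.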
